A study of Mus musculus with 18 samples.

Results

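The fatty acid-binding proteins are small proteins of the cytosol that hold a long-chain fatty acid in the water of the cell and carry it between membranes, enzymes and the nucleus. The transcripts of 5 of these genes (Fabp1, Fabp2, Fabp4, Fabp5 and Fabp7) were followed by gene symbol through the 2 expression tables of the study. The liver table held a row for each of the 5 among its 16533 genes. The AML12 table held rows for 3 of them (Fabp2, Fabp4 and Fabp5) among its 15579 genes, and Fabp1 and Fabp7 had no row there.

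RNA was sequenced from the livers of 6 male db/db mice of the strain B6.Cg-dock7m Leprdb/++/J, whose lack of a working leptin receptor makes them obese and diabetic. Of these, 3 were injected intravenously with rMSA, a mouse serum albumin made by recombinant means, at a dose of 1.5 mg per g of body weight, 3 times at intervals of 3 weeks over 9 weeks, and 3 received saline on the same schedule. The second experiment used AML12 cells, an immortalized line of mouse hepatocytes, starved overnight without serum and then treated for 24 h. The 4 groups were vehicle, insulin at 10 nM, rMSA at 600 µM, and both agents together, with 3 libraries in each. All 6 mice carried the Lepr mutation, so no lean liver was compared, and their age was not given in the labels. All AML12 libraries came from 1 cell line starved in the same way, and the sources used here do not say whether the libraries of a group were separate cultures, so the AML12 p-values measure the spread between these libraries, which may be technical. Values are TPM, a share of all transcripts corrected for transcript length, so levels of different genes can be compared on this scale. Read counts cannot be recovered from TPM, which leaves depth unknown and allows no counting intervals. Testing used limma on log2(TPM + 1), for genes averaging at least 1 TPM in an experiment, and "rose" or "fell" is used for an adjusted p under 0.05. Changes of genes near or below 1 TPM come out too small on this scale. Where all libraries of 1 group are said to lie above those of another, this is description. How many of all genes did so was not counted.

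Each fatty acid-binding protein is known from the tissue where it is most abundant, and the family is used to describe how cells that burn, store or export fat handle fatty acids. Fabp1 is the liver form and also occurs in the intestine. Fabp2 is the intestinal form, Fabp4 the form of adipocytes and macrophages, Fabp5 the epidermal form that is also made by macrophages and many epithelia, and Fabp7 the brain form of glial cells. Several of the genes are transcriptional targets of the peroxisome proliferator-activated receptors (PPARs), nuclear receptors that are activated by fatty acids and bind DNA together with a retinoid X receptor.

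The 5 genes share 1 architecture. In the GENCODE annotation each has 4 exons, an mRNA of 553 bases (Fabp1) to 987 bases (Fabp5) and a coding sequence of 384 to 408 bases. In the assembly GRCm38.p6, Fabp1 lies on chromosome 6 from 71199879 to 71205034, and Fabp7 on chromosome 10 from 57784923 to 57788450, both on the plus strand. The other 3 lie on chromosome 3. Fabp5 spans 10012585 to 10016610 on the plus strand, Fabp4 spans 10204342 to 10208616 on the minus strand, and Fabp2 spans 122895072 to 122899506 on the plus strand, far from the other two. Fabp9 and Fabp12, further genes of the family, flank Fabp4 at distances of 7.1 and 35.6 kb. The coding sequences of the 5 genes were 50.8% (Fabp2 and Fabp4) to 64.2% (Fabp4 and Fabp7) identical over their aligned bases. RefSeq also lists a Fabp5 pseudogene, and how reads matching more than 1 place were counted is not given in the sources used here, so the level of Fabp5 carries that uncertainty.

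The 250 bases before the start of Fabp1, Fabp2 and Fabp7 are shown because motifs of nuclear receptors are often looked for there. The RefSeq table used here (GRCm38.p6) held only these 3 of the 5 genes, and Fabp4 and Fabp5 are named only. All 3 sequences are on the plus strand, 5′ to 3′. Capitals mark matches on either strand to AGGTCA (the half-site of many nuclear receptors), to 2 such half-sites 1 base apart with at most 2 mismatches (a DR1, the arrangement bound by PPARs and by Hnf4a), to TATAAA or to CCAAT.
Fabp1 chr6:71199629-71199878: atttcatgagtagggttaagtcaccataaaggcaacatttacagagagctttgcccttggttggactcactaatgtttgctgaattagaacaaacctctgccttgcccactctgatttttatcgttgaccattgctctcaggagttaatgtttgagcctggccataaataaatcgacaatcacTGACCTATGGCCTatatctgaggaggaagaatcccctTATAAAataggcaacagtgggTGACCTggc
Fabp2 chr3:122894822-122895071: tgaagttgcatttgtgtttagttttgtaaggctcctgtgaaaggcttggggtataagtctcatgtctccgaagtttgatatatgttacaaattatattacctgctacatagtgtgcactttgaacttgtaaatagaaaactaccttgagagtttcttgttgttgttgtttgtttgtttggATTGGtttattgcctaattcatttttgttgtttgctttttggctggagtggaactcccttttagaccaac
Fabp7 chr10:57784673-57784922: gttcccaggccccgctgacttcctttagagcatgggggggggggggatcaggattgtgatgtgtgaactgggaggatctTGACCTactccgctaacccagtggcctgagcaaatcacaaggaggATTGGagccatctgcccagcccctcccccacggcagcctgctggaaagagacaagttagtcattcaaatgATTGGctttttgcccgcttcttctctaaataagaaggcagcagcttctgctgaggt
The upstream sequence of Fabp1 held a DR1 with 1 mismatch, TGACCTATGGCCT, on the minus strand from base -67 to base -55 before the start, which includes 1 of its 2 exact AGGTCA matches. It also held TATAAA from base -30 to base -25. Fabp2 held 1 CCAAT match and no other motif. Fabp7 held 1 AGGTCA match and 2 CCAAT matches, and neither Fabp2 nor Fabp7 held a DR1 or TATAAA. Among 32841 upstream sequences of the same length, 3.2% held a DR1, 14.0% AGGTCA, 12.4% TATAAA and 33.9% CCAAT. These matches describe letters in this window and no binding was measured.

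The livers divided by treatment, with the first principal component carrying 72.0% of the variance. Summed hepatocyte markers (12 of 12 in the table) were 115422 to 128555 TPM with saline and 120895 to 127058 TPM with rMSA, so the transcripts that define the labelled tissue were present in both groups, although single markers moved. Of the 12, 6 fell and 2 rose, with a median log2 fold change of -0.52. Tat and Cps1, enzymes of amino acid breakdown and of the urea cycle, fell, with means of 4767 and 1438 TPM under saline against 618 and 503 TPM under rMSA, and Apoa1 rose (1944 against 9468 TPM). Ribosomal protein genes made up 3.14% to 3.25% of TPM with saline and 3.76% to 4.51% with rMSA. In AML12 cells, 9 of these 12 markers had a row and their sum was 61.8 to 362 TPM. In the 6 vehicle and rMSA libraries albumin (Alb) was at 23.6 to 69.2 TPM and Ttr at 37.3 to 190 TPM, no other hepatocyte marker was above 2.09 TPM, and Krt19, a keratin of bile duct cells, was at 1015 to 1426 TPM. The first principal component of the AML12 libraries carried 68.2% of the variance and also spread libraries within groups. Vehicle libraries were at 7.44 to 26.5 and rMSA libraries at 14.4 to 40.1. Insulin libraries 1 to 3 were at -35.5, -84.5 and 17.1, and rMSA + insulin libraries 1 to 3 at -8.88, -29.3 and 4.31. Insulin libraries 1 and 2 stood apart from the other AML12 libraries in ribosomal protein share and, less sharply, in the median. Ribosomal protein genes made up 33.6% and 36.3% of their TPM against 22.2% to 28.1% in the other 10, and the median of all tested genes was 14.6 and 11.2 TPM against 16.2 to 22.6 TPM. The values that use the insulin group are therefore given with and without these libraries. Without them the insulin group is insulin library 3 alone. Those differences are given as sizes only, since nothing repeats the insulin side.

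In db/db liver, Fabp1, Fabp5 and Fabp2 rose with rMSA, and no difference was detected for Fabp4 and Fabp7. Of 11398 genes tested, 21.8% were higher and 8.38% lower in the rMSA livers at an adjusted p under 0.05, against 3 and 0 of the 5 genes. The median log2 fold change of all tested genes was 0.12, and it moved by -0.14 when the libraries were centred on their medians, which also moved the share of higher genes among the called from 72.3% to 52.3%. After that centring Fabp1, Fabp2 and Fabp5 still rose.

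Fabp1, which delivers fatty acids to oxidation and to lipid assembly in hepatocytes, was at 315.7, 218 and 418 TPM in the saline livers and at 10792, 9422 and 9170 TPM in the rMSA livers. Every rMSA liver was far above every saline liver, and the spread within each group was small beside the gap. The log2 fold change was 4.99 (SE 0.22, limma adjusted p = 5.40e-06), and 4.85 after median centring. In order of mean level, Fabp1 moved from place 453 among 16533 genes in saline livers to place 12 in rMSA livers. It made up 75.9% of the TPM of the 5 genes with saline and 97.7% with rMSA. The sum of the 5 genes was 324 to 492 TPM with saline and 9416 to 11001 TPM with rMSA, that is 0.0324% to 0.0492% and 0.942% to 1.10% of all TPM.

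Fabp5 had the lowest mean of the 5 genes in saline livers, where its range overlapped that of Fabp7. It was at 3.74, 3.26 and 3.34 TPM with saline and at 20.5, 23.0 and 20.4 TPM with rMSA, so the groups were far apart and the 3 mice within each were close. The mean ratio was 6.18 and the log2 fold change 2.33 (SE 0.13, limma adjusted p = 1.55e-05). The markers of squamous epithelium, where Fabp5 is abundant, summed to 2.35 to 3.60 TPM with saline and 2.19 to 2.35 TPM with rMSA. The 1 that was tested did not pass, but it fell after median centring and under quantile normalization. Bile duct markers were higher with rMSA, with sums of 23.4 to 39.2 TPM and 78.3 to 169 TPM. Of 6 tested, 3 rose, led by Spp1 (24.7 and 114 TPM in the means), beside 21.8% of all tested genes. Epcam, 1 of the 3, was at 0.68 to 1.11 TPM with saline and 1.45 to 3.97 TPM with rMSA. It passed the mean of 1 TPM only through the rMSA livers. Only Spp1 stayed called under quantile normalization and with the replicate number as a block. The part of these markers in Fabp5 was not tested. Fabp2 was at 34.2, 47.8 and 22.3 TPM with saline and at 128, 125 and 152 TPM with rMSA. The saline livers were spread from 22.3 to 47.8 TPM, yet the highest of them was well below the lowest rMSA liver. Fabp2 thus rose 3.89-fold in mean TPM, or 1.99 on the log2 scale (SE 0.24, limma adjusted p = 6.06e-04).

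Transcripts of other intestinal epithelial genes were read beside Fabp2. Of 9 enterocyte markers, 5 (Alpi, Cdx1, Cdx2, Lct and Sis) had no row in the liver table and Vil1, which builds the brush border, was at 0 to 0.13 TPM with saline and 0.11 to 0.37 TPM with rMSA. The summed markers went from 622 to 1032 TPM to 9402 to 15393 TPM, almost all of it Apoa4, an apolipoprotein that liver also makes (659 and 12916 TPM in the means, log2 fold change 4.31, limma adjusted p = 2.76e-05).

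**Figure D1:**
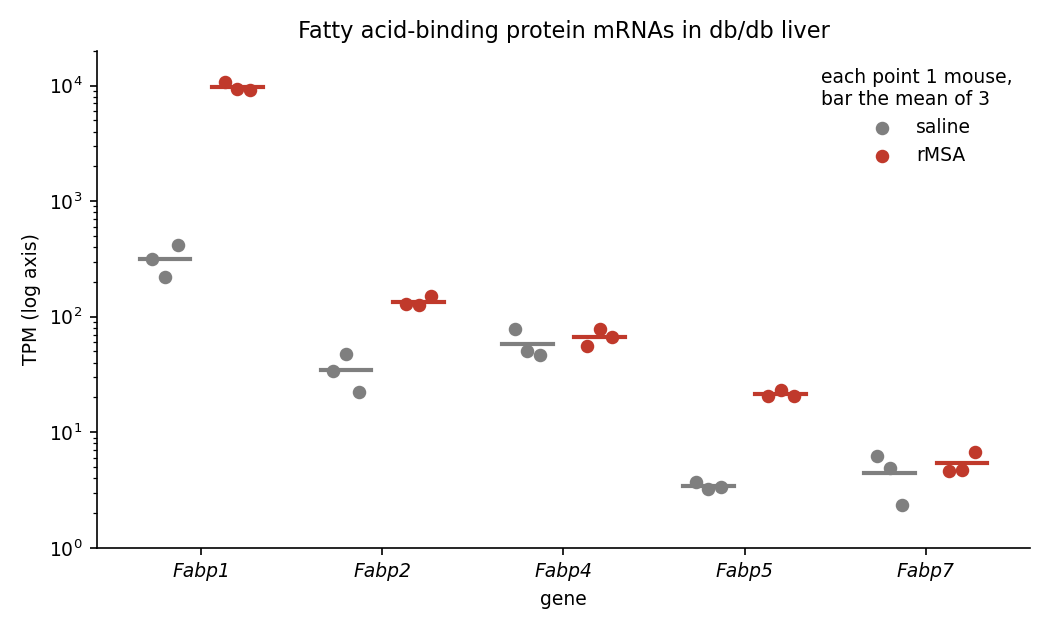
TPM on a log axis of the 5 fatty acid-binding protein genes in the 3 saline (grey) and 3 rMSA (red) livers, each point 1 mouse and each bar the mean. Fabp1, Fabp2 and Fabp5 lie apart between the groups, with Fabp1 at 218 to 418 TPM and 9170 to 10792 TPM, and the points of Fabp4 and Fabp7 overlap.

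Fabp4 was at 78.3, 50.1 and 46.4 TPM with saline and at 55.8, 77.9 and 66.8 TPM with rMSA. The highest liver was a saline one and the groups overlapped. Its log2 fold change was 0.22, with a 95% interval of -0.25 to 0.69 (limma adjusted p = 0.468), so a rise of up to 0.69 on the log2 scale is not excluded by these 6 livers. In bulk liver, fewer cells of a type and less RNA per cell cannot be told apart, and macrophage and adipocyte transcripts were therefore read beside Fabp4. The summed level of the 15 macrophage markers was 753 to 1095 TPM with saline and 795 to 1163 TPM with rMSA. Of the 13 tested, 2 rose (Cd68 and Cx3cr1) and 2 fell, Marco, a scavenger receptor (37.6 to 3.20 TPM in the means), and Timd4, a receptor of resident liver macrophages (10.4 to 3.64 TPM). Cx3cr1 was at 0.26 to 0.40 TPM with saline and 2.04 to 2.95 TPM with rMSA. It passed the mean of 1 TPM only through the rMSA livers, so its entry into the test was not independent of the difference. Adipoq, the adipocyte hormone adiponectin, was at 0 to 0.15 TPM in all 6 livers, and Lep and Plin1 had no row. The adipocyte markers summed to 16.8 to 19.6 TPM with saline and 170 to 237 TPM with rMSA, nearly all of the difference being Cidec (4.38 to 201 TPM in the means), a lipid droplet protein that fatty hepatocytes also make. Of 10 endothelial markers 1 rose, the sinusoidal lectin Clec4g (33.6 to 61.5 TPM), with sums of 123 to 176 TPM and 172 to 176 TPM. The part of these cell types in the level of Fabp4 was not tested.

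Fabp7 was at 6.22, 4.86 and 2.33 TPM with saline and at 4.65, 4.70 and 6.81 TPM with rMSA, again overlapping, with the lowest value in saline liver 3. The log2 fold change was 0.28, with a 95% interval of -0.37 to 0.93 (limma adjusted p = 0.511), and it was -0.043 without saline liver 3. Among the glial markers S100b and Sox10 were at 0 to 0.05 TPM and Gfap at 0.17 to 0.85 TPM in the 6 livers. Aldh1l1, also on that list, is a folate enzyme of hepatocytes and fell (1247 to 554 TPM in the means, limma adjusted p = 6.23e-04), and Mbp rose (0.92 to 2.04 TPM). With a saline mean under 1 TPM, Mbp entered the test only through the rMSA livers.

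The order of the 5 genes by mean level therefore differed between the groups. With saline it was Fabp1, Fabp4, Fabp2, Fabp7, Fabp5, and the ranges of Fabp4 and Fabp2 overlapped, as did those of Fabp7 and Fabp5. With rMSA it was Fabp1, Fabp2, Fabp4, Fabp5, Fabp7, and each gene's range lay apart from that of the next. Of 9 other genes of the lipid-binding family that were looked for, 5 had a row in the liver table, and none of these had a mean of at least 1 TPM.

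The genes whose profile over the 6 livers was most like that of each member were named by Pearson's r of log2(TPM + 1). For Fabp1, Fabp2 and Fabp5 the 6 points form 2 clusters by treatment, so these values mostly restate the difference between the groups. Fabp1 was closest to Coq2 (r = 0.9999), Acaa1b (0.9995) and Hsp90ab1 (0.999), of which Acaa1b, a thiolase of peroxisomal fatty acid oxidation, went from 267 to 2334 TPM. Fabp2 was closest to Msmo1 (0.999), an enzyme of cholesterol synthesis, Acad9 (0.998) and Acot13 (0.997). Fabp5 was closest to Fdps (0.999), Acacb (0.999) and Gpam (0.999), enzymes of isoprenoid, malonyl-CoA and glycerolipid synthesis, and Fdps went from 36.6 to 609 TPM. Fabp4 was closest to Cd300a (0.980), Selplg (0.961) and Phf10 (0.957), the first 2 being surface proteins of leukocytes. Fabp7 was closest to Ankra2 (0.999), Pex3 (0.995) and Gm21596 (0.993). With 6 livers such values are a description and carry no p.

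Genes that act around the fatty acid-binding proteins in hepatocytes were read from lists. Among 13 genes of fatty acid uptake and activation, 10 were tested, 5 rose and 2 fell, with a median log2 fold change of 0.38 against 0.12 for all genes. Of all tested genes, 21.8% were higher and 8.38% lower. Acsl5 and Acsl3, which attach coenzyme A to fatty acids, rose (134 to 387 TPM, log2 1.54, and 2.82 to 10.5 TPM, log2 1.63). Slc27a5, a bile acid and fatty acid CoA ligase of the liver, fell from 1014 to 526 TPM (log2 -0.96, limma adjusted p = 0.00157). Of 13 acyl-CoA and lipid carriers, 11 were tested, 5 rose and 1 fell, with a median of 0.40. The acyl-CoA-binding protein Dbi rose from 705 to 2267 TPM (log2 1.72), the phosphatidylcholine carrier Pctp from 19.5 to 76.0 TPM (log2 1.91) and the sterol carrier Stard4 from 4.36 to 18.4 TPM (log2 1.86). Median centring gave 3 and 4 rises on these 2 lists.

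Of 18 regulators of these genes, 17 were tested, 4 rose and 3 fell, with a median of -0.21. The 4 rises are near the share of all tested genes that were higher (21.8%), and 8.38% were lower. Pparg, the receptor of fat storage, rose from 14.1 to 33.3 TPM (log2 fold change 1.20, limma adjusted p = 7.62e-04), and Rxrg (1.02), Foxa1 (0.80) and Cebpa (0.78) rose with it on the log2 scale. Hnf4a, a central factor of hepatocyte identity, fell from 499.7 to 229 TPM (log2 fold change -1.12, limma adjusted p = 2.96e-04). Cebpb (-0.87) and the coactivator Ppargc1a (-0.94) also fell, the latter losing its call with the replicate number as a block (adjusted p = 0.109). Ppara, the PPAR most abundant in hepatocytes, was at 48.8 and 72.3 TPM in the means, with a log2 fold change of 0.55 that missed the threshold (SE 0.18, limma adjusted p = 0.0543). Under quantile normalization 4 regulators rose and 6 fell. Of 28 targets of the PPARs outside the family, all were tested, 14 rose and 2 fell, with a median of 0.55, beside 21.8% higher and 8.38% lower of all tested genes. The lipid droplet genes Cidea (log2 fold change 7.24), Cidec (5.22) and Plin2 (2.82) had the smallest p. The 2 that fell, named for being the exceptions after their values were seen, were the fatty acid omega-hydroxylase Cyp4a10 (-1.13) and the droplet protein Plin5 (-1.42). After median centring 12 of the targets rose and 3 fell.

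**Figure D2:**
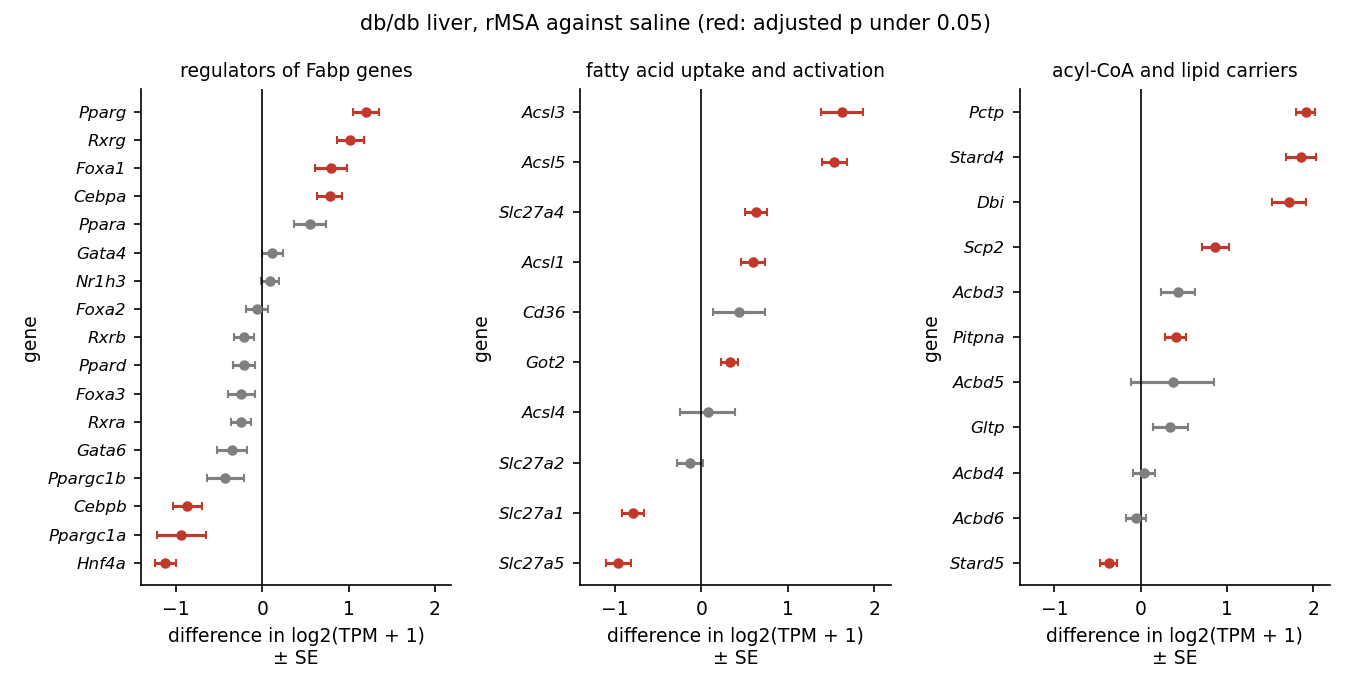
Difference in log2(TPM + 1) between rMSA and saline livers (points, with the SE as bars) for the tested genes of 3 lists, red where the adjusted p was under 0.05. Pparg (1.20) lies at the top and Hnf4a (-1.12) at the bottom of the regulators, and 10 of the 21 uptake and carrier genes are red to the right of 0.

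In AML12 hepatocytes Fabp5 was the main fatty acid-binding protein of the 3 listed. It made up 95.2% (rMSA) to 99.2% (vehicle) of their TPM, lay apart from the next gene in every group, and stood at place 2642 (rMSA) to 3392 (rMSA + insulin) among 15579 genes. The liver and AML12 values may have been normalized separately, so levels are only set side by side. Fabp5 was at 3.26 to 23.0 TPM in the livers and at 29.3 to 56.8 TPM in AML12 cells, Fabp4 at 46.4 to 78.3 TPM and at 0 to 3.18 TPM, and Fabp2 at 22.3 to 152 TPM and at 0 to 0.37 TPM.

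Fabp4 was the member that differed most with rMSA in these cells. It was at 0.14, 0.26 and 0.39 TPM with vehicle and at 2.45, 3.18 and 2.32 TPM with rMSA, so that all 3 rMSA libraries were above all vehicle libraries. The mean ratio was 10.1 and the log2 fold change 1.53 (SE 0.17, limma adjusted p = 3.00e-04), in a comparison where 5.9% of 10826 genes were higher and 1.89% lower. With insulin present in both groups, Fabp4 was listed at 0.11, 0.20 and 0 TPM without rMSA and was at 2.08, 0.92 and 1.66 TPM with it. The groups were again apart, by 1.19 on the log2 scale (SE 0.17, limma adjusted p = 0.00100) where 14.5% of genes were higher and 2.73% lower. Median centring moved the median of all genes by -0.066 and -0.26 in these 2 comparisons and the share of higher genes among the called from 75.7% to 64.6% and from 84.2% to 48.9%, and Fabp4 stayed called at 1.46 and 0.93 on the log2 scale. Against insulin library 3 alone (0 TPM) the log2 difference of Fabp4 with rMSA + insulin was 1.33. Fabp4 passed the mean of 1 TPM only through the groups that received rMSA, so its entry into the test was not independent of the difference, and its values are low in absolute terms. Fitted with all 15579 genes and no filter, it had an adjusted p of 3.73e-04 without insulin and 0.00112 with it (limma). The size of the change depends on the TPM added before the logarithm, from 0.54 with 5 TPM to 2.97 with 0.1 TPM for rMSA against vehicle. Macrophage and adipocyte markers were low in the same cells. The 5 macrophage markers with a row summed to 6.70 to 10.7 TPM over the 12 libraries, and Csf1r, the receptor that defines the lineage, went from 2.80 to 0.38 TPM with rMSA (means, limma adjusted p = 5.48e-06), while Cd68 was at 3.99 to 5.02 TPM with vehicle and 7.16 to 8.04 TPM with rMSA (adjusted p = 0.0683) and Lyz2 at 0 to 0.17 TPM and 0.18 to 0.26 TPM. Csf1r passed the mean of 1 TPM only through the groups without rMSA, so its entry into the test was not independent of the difference either. Adipoq, Cfd and Plin1 had no row, and the 5 adipocyte markers with a row summed to 6.87 to 7.42 TPM with vehicle and 8.50 to 9.78 TPM with rMSA. Most of this was Lipe (6.76 to 7.09 and 7.54 to 8.65 TPM). Cidec, too low to be tested, was at 0.05 to 0.37 and 0.90 to 0.93 TPM. With insulin in both groups Cidec was at 0.30 to 0.68 TPM without rMSA and 1.37 to 2.20 TPM with it. Adrb3, Lep and Retn were at 0 to 0.17 TPM.

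Fabp5 was at 39.1, 42.4 and 42.8 TPM with vehicle and at 52.8, 55.1 and 56.8 TPM with rMSA. All rMSA libraries were above all vehicle libraries, by 1.32 times in the mean, yet the log2 difference of 0.40 (SE 0.12) missed the threshold across all genes (limma adjusted p = 0.0774). It passed when the fit held only the groups compared (adjusted p = 0.00249) and with array weights (6.94e-05), in a range over the alternatives up to 0.380. Both of these settings also called many more genes in all than the main fit. Fabp5 did not pass with the replicate number as a block. With insulin, Fabp5 was at 42.2, 29.3 and 32.2 TPM without rMSA and at 39.5, 37.0 and 37.3 TPM with it. Insulin library 1 was above all rMSA + insulin libraries and the other 2 insulin libraries were below them. The log2 difference was 0.15, with a 95% interval of -0.12 to 0.41 (limma adjusted p = 0.443), and 0.23 without insulin libraries 1 and 2 (adjusted p = 0.0734).

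Fabp2 was listed at 0, 0.09 and 0.09 TPM with vehicle, at 0, 0.27 and 0.37 TPM with insulin, at 0, 0.10 and 0.18 TPM with rMSA, and at 0.17, 0.32 and 0.09 TPM with rMSA + insulin. It was under the mean of 1 TPM and all groups overlapped. Exact two-sided permutation tests of the mean TPM gave p = 0.6 for rMSA against vehicle, 0.9 for rMSA + insulin against insulin, 0.4 for insulin against vehicle and 0.5 for rMSA + insulin against rMSA, where the smallest p that 3 against 3 libraries allow is 0.1. These 4 p-values are unadjusted and none could have passed 0.05.

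**Figure D3:**
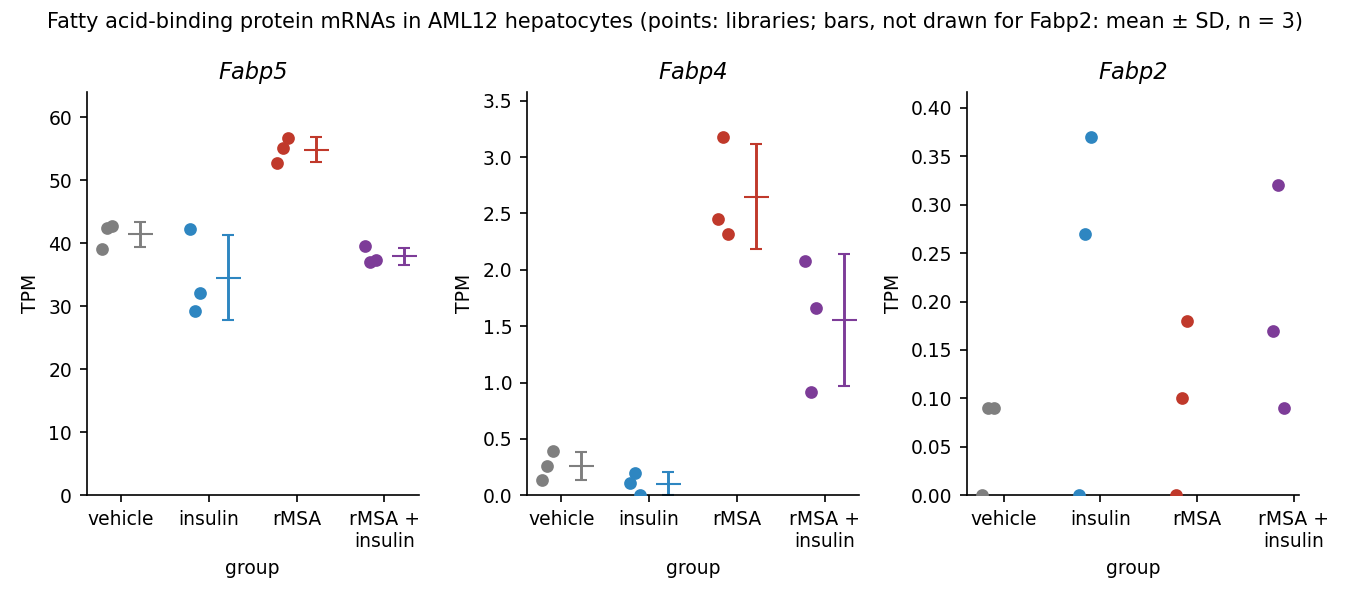
TPM of Fabp5, Fabp4 and Fabp2 in the 4 groups of AML12 hepatocytes on linear axes that differ between panels, each point 1 library and, beside the points of Fabp5 and Fabp4, the mean ± SD of 3. The 3 rMSA libraries are above the vehicle libraries for Fabp5 (52.8 to 56.8 against 39.1 to 42.8 TPM) and Fabp4 (2.32 to 3.18 against 0.14 to 0.39 TPM).

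Insulin without rMSA was compared with vehicle next. No gene of 10826 was called by limma in either direction (0% higher and 0% lower), although 3969 genes had an unadjusted p under 0.05, and the 2 insulin libraries that stand apart enter this comparison. Fabp4 had a log2 difference of -0.19 (95% interval -0.57 to 0.18, adjusted p = 0.367) and Fabp5 of -0.27 (-0.54 to -0.0047, adjusted p = 0.136), with overlapping libraries for both. The median of all genes was itself -0.30, and after median centring, which moved it by 0.39, the differences were 0.20 and 0.12. Without insulin libraries 1 and 2, which leaves 1 insulin library, they were -0.33 and -0.35. Insulin on top of rMSA was accompanied by lower Fabp5, 52.8 to 56.8 TPM against 37.0 to 39.5 TPM, and by lower Fabp4, 2.32 to 3.18 TPM against 0.92 to 2.08 TPM, with no overlap for either gene. In this comparison 2914 of the 10826 genes had an unadjusted limma p under 0.05. Fabp5 fell by 0.52 on the log2 scale (SE 0.12, limma adjusted p = 0.0413), where 1.1% of genes were lower and 2.95% higher and the median of all genes was -0.15. Median centring moved that median by 0.21 and the share of higher genes among the called from 72.8% to 45.0%. This call is not firm. It was lost after median centring (-0.31, adjusted p = 0.233), with the replicate number as a block (adjusted p = 0.0697) and when any 1 of the 6 libraries was left out (adjusted p from 0.108 to 0.180). The log2 difference of Fabp4 was -0.54 (SE 0.17, adjusted p = 0.102).

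Whether rMSA acted differently with and without insulin was tested by the interaction term, for which 0.0369% of genes were higher and 0% lower. It was -0.34 for Fabp4 (95% interval -0.88 to 0.19, limma adjusted p = 0.989) and -0.25 for Fabp5 (-0.63 to 0.13, adjusted p = 0.985). The values without insulin libraries 1 and 2 were -0.20 and -0.17 (adjusted p = 0.644 and 0.306). A difference of this kind was not detected, and the intervals leave room for one of up to 0.88 in size for Fabp4.

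**Figure D4:**
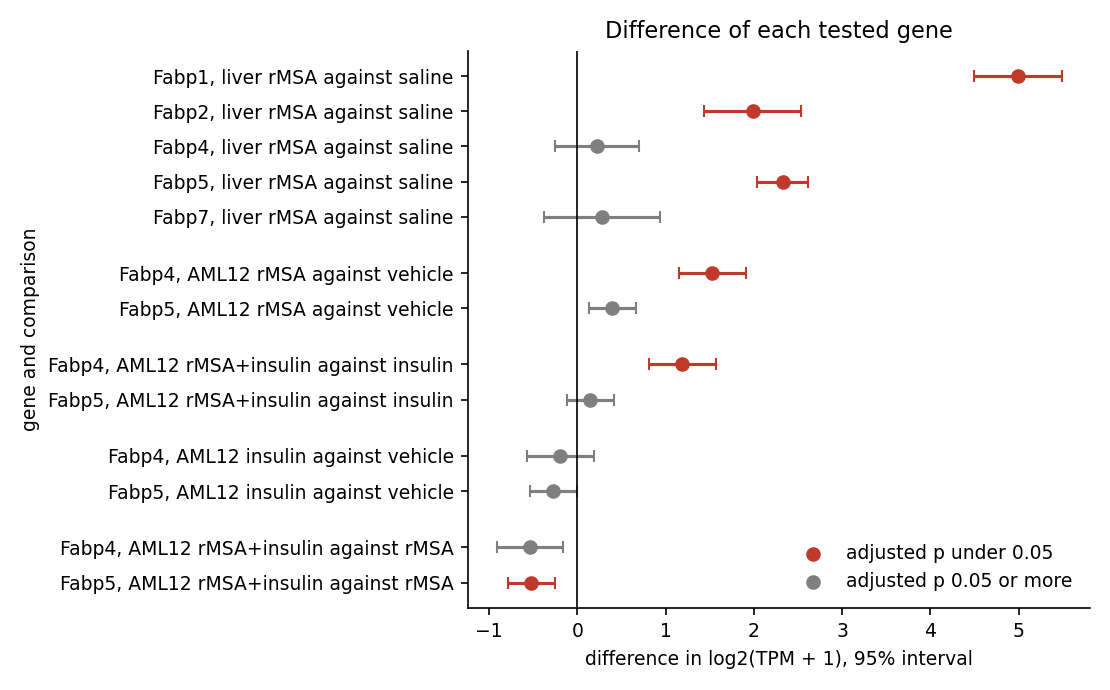
Difference in log2(TPM + 1) with its 95% interval for each tested fatty acid-binding protein gene in 5 comparisons, red where the adjusted p was under 0.05. Fabp1 in liver (4.99) is the farthest from 0, Fabp5 (2.33) and Fabp2 (1.99) follow, and Fabp4 is red in both comparisons of rMSA in AML12 cells (1.53 and 1.19) and grey in liver (0.22).

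The profiles most like those of the members over the 12 AML12 libraries were Slfn2 (r = 0.966), Azgp1 (0.963) and Cdk2ap2 (0.960) for Fabp4, and Igfbp7 (0.942), Lgals2 (0.916) and Cst3 (0.914) for Fabp5. Azgp1, a secreted factor that promotes fat breakdown, had means of 3.83 and 13.0 TPM with vehicle and with rMSA, and Slfn2 had means of 40.8 and 84.6 TPM. These points include the 2 insulin libraries that stand apart and share treatment groups.

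Among the other lipid-binding proteins in AML12 cells, the retinol carrier Rbp2 rose with rMSA (15.3 to 27.3 TPM, log2 fold change 0.80, limma adjusted p = 0.0157) and with rMSA + insulin against insulin (21.7 to 33.9 TPM, 0.64, adjusted p = 0.0272), and both calls were lost after median centring (adjusted p = 0.205 and 0.470). Against insulin library 3 alone the second difference was 0.98. Pmp2, the myelin fatty acid-binding protein, was at 7.97 TPM with vehicle and 10.1 TPM with rMSA (log2 0.31, adjusted p = 0.574). None of the 12 tested regulators passed the threshold with rMSA alone, where 5.9% of all tested genes were higher and 1.89% lower. Their median log2 fold change was 0.13 against 0.061 for all genes. Ppara and Pparg were under the mean of 1 TPM. With insulin in both groups 3 of the 12 rose, namely Ppard (18.0 to 39.0 TPM, log2 1.09), Cebpb (1.31) and Gata4 (0.46), where 14.5% of all tested genes were higher. Gata4 lost its call after median centring (0.20, adjusted p = 0.251), which gave 2 rises and 1 fall. Against insulin library 3 alone the log2 differences were 1.17 for Ppard, 0.39 for Cebpb, 0.25 for Gata4 and -0.66 for Ppargc1a. Ppard also rose with rMSA + insulin against rMSA (23.0 to 39.0 TPM, log2 0.74, limma adjusted p = 0.0202).

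PPAR targets outside the family rose in 5 of 14 tested cases with rMSA and in 5 of 14 with rMSA + insulin against insulin, and none fell, with medians of 0.18 and 0.40 against 0.061 and 0.21 for all genes. Of all tested genes 5.9% and 14.5% were higher in these 2 comparisons, and 1.89% and 2.73% were lower. Plin2, which coats lipid droplets, went from 312 ± 5.68 to 882 ± 30.5 TPM with rMSA (SD, n = 3 each, log2 1.49, limma adjusted p = 2.50e-05), and from 272 to 969.6 TPM with insulin in both groups (log2 1.85). The acyl-CoA thioesterase Acot1 rose from 240 to 417 TPM with rMSA (log2 0.79) and the pantetheinase Vnn1 from 39.2 to 90.4 TPM (log2 1.18, limma adjusted p = 0.00598), and both stayed called after median centring. With insulin in both groups Angptl4, an inhibitor of lipoprotein lipase, rose from 30.9 to 58.4 TPM (log2 0.90) and Acot1 from 209 to 351 TPM (log2 0.76), and both calls were lost after median centring (adjusted p = 0.0924 and 0.104). Of the 5 targets called in each comparison, median centring kept 3 (Plin2, Acot1 and Vnn1) without insulin and 2 (Plin2 and Vnn1) with it, Acot2 being lost in both (adjusted p = 0.163 and 0.0520). Against insulin library 3 alone the log2 differences were 1.64 for Plin2, 1.11 for Angptl4 and 0.85 for Acot1. Of 9 tested genes of uptake and activation, Acsl5 (log2 0.46) and Slc27a1 (0.70) rose with rMSA, Acsl5 losing its call after median centring (adjusted p = 0.0777), and 4 rose with insulin in both groups, the smallest p being those of Slc27a1 (0.88), Acsl5 (0.44) and Got2 (0.34), of which only Slc27a1 stayed called after median centring. Against insulin library 3 alone they were 0.52 for Slc27a1, 0.26 for Acsl5 and -1.24 for Acsl4. Of 12 tested carriers, 1 fell with rMSA (Acbd6, -0.36) and 2 rose with rMSA + insulin against insulin (Stard5, 0.91, and Pctp, 0.41), a count near the 14.5% of all tested genes. The calls of Acbd6 and Pctp were lost after median centring (limma adjusted p = 0.251 and 0.504). Against insulin library 3 alone the log2 differences of Stard5 and Pctp were 0.35 and 0.27. Those of Acbd4 and Dbi were 0.53 and 0.41, and those of Acbd3 and Stard4 were -0.79 and -0.68. Insulin alone called none on these lists, and on top of rMSA it left 2 PPAR targets higher, Acot2 (0.96) and Angptl4 (0.44), the latter losing its call after median centring (limma adjusted p = 0.0792). Of all tested genes 2.95% were higher and 1.1% lower with insulin on top of rMSA. No gene of uptake or carrier was called there, whereas median centring gave 1 rise and 3 falls among the carriers and 1 fall among the genes of uptake.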

How the data were processed

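Liver RNA of 6 db/db mice and RNA of 12 AML12 libraries was sequenced, and samples were grouped by GEO's labels. TPM values were deposited by the authors for each library, rounded to 2 decimals, with library totals of 999949 to 1000001. The submitters' processing notes name Trimmomatic 0.33, STAR 2.5.2b, featureCounts, Subread 1.6.0, with GRCm38 as the genome. For the annotation, strand setting and formula of TPM, nothing is given in the sources used here. TPM holds no counts, so the DESeq2 test of the study could not be run and depth is unknown.

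TPM + 1 was put on the log2 scale and fitted with limma 3.58.1 in R 4.3.3 (1 mean per group, all groups of an experiment in the fit, empirical Bayes with a mean-variance trend). Genes averaging at least 1 TPM entered the test, 11398 in liver and 10826 in AML12 cells, with Benjamini-Hochberg adjustment over all of them and a threshold of 0.05. Below that mean an exact permutation test was used. The scripts were tested on simulated data. Gene positions and upstream sequences came from RefSeq (GRCm38.p6), which matched 16433 and 15531 of the genes by ID, and transcript structure from GENCODE. Coding sequences were aligned globally with Biopython 1.88.

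The members and gene lists were chosen with earlier results of these data known. Some genes of the lists are not reported here and do not enter the counts of their lists. Besides the members, the text names the 3 genes most correlated with each (mean of at least 5 TPM), any regulator or other lipid-binding protein, and up to 3 genes with the smallest p of the other lists, or, in a list where none passed, up to 2 by highest mean. Marker genes read for their defining role, the exceptions on a list and the genes called only under an alternative were chosen after their values were seen.

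Alternatives were another TPM added, other filters, 3 scalings, a robust fit, array weights (gene by gene, as the default fit did not converge), a replicate block, only the groups compared, each library left out, insulin libraries 1 and 2 left out, and, added after seeing the data, removal of the trend with mRNA length. The replicate numbers were checked by the correlation of deviations from the group means. Same-numbered vehicle and rMSA libraries all correlated above the 0.1 required (0.53, 0.14 and 0.58 for numbers 1 to 3), although rMSA library 2 was closer to vehicle library 1 (0.18). The numbers of the livers (0.050, -0.41 and -0.39) and of the other AML12 comparisons did not all pass it. For insulin and rMSA + insulin the values were 0.095, 0.79 and 0.80 for numbers 1 to 3, so that only number 1 was below 0.1.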

Additional observations from a re-analysis of the deposited data

How the results depend on the processing

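The rises of Fabp1, Fabp2 and Fabp5 in liver and of Fabp4 with rMSA in AML12 cells, without and with insulin, kept direction and side of the threshold under every alternative that gave them a value. For AML12 Fabp4, which passed the minimum of 1 TPM only through the groups with rMSA, this says little beyond the fit without a filter. Fabp1 has no value without the 50 highest genes, being 1 of them, and AML12 Fabp4 none at a mean of at least 5 TPM. Over all alternatives, 251 fold changes of members kept direction and side, 10 reversed, 5 newly passed and 10 no longer passed. The liver difference of Fabp7 ran from -0.043 (without saline liver 3) to 0.51 when single livers were left out. For Fabp5 with rMSA + insulin against insulin it was -0.11 with median centring, -0.063 with quantile normalization and -0.092 with array weights. It was -0.073 without the trend with mRNA length, and 0.36 without that trend and without insulin libraries 1 and 2. For insulin against vehicle, Fabp4 and Fabp5 were 0.20 and 0.12 with median centring and 0.21 and 0.037 without the length trend. The interaction of Fabp4 was 0.13 with 0.1 TPM added. With array weights Fabp5 passed for rMSA against vehicle (0.39, also 0.40 with only the groups compared) and in the interaction (-0.48, adjusted p = 9.82e-04), and Fabp4 passed for rMSA + insulin against rMSA (-0.45). The fall of Fabp5 for rMSA + insulin against rMSA did not pass with median centring (-0.31), quantile normalization (-0.42), the replicate block (-0.52), without the length trend (-0.38) or with any library left out (-0.55 to -0.50). The cause of these shifts was not tested.

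Without insulin libraries 1 and 2 the insulin group is 1 library, assumed to vary like the other groups. The replicate block changed no other call of a member. Where the numbers met the pairing rule, for rMSA against vehicle, the blocked adjusted p was 0.00203 for Fabp4 and 0.123 for Fabp5. Elsewhere the rule was not met, and whether same-numbered libraries share more than a number is not known.

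The number of genes called varied more. In liver 3442 were called, 2171 with the replicate block and 981 with a fold threshold of 1 on the log2 scale. For rMSA against vehicle 844 were called, 1347 with quantile normalization, 4687 with array weights, 2633 with only the groups compared, 196 with the fold threshold, 1448 without the length trend and 492 to 574 with single libraries left out. For rMSA + insulin against insulin 1871 were called, 7181 with array weights, 309 with only the groups compared, 3276 without insulin libraries 1 and 2 (4486 also without the length trend), 292 with the fold threshold and 1036 to 5833 with single libraries left out, the most without insulin library 3. For insulin against vehicle 0 were called, 1 without a filter, 13 with median centring, 23 with quantile normalization, 2 without the 50 highest genes, 8060 with array weights, 16 without insulin libraries 1 and 2, 5 without the length trend and 0 to 7415 with single libraries left out, the most without insulin library 3. For rMSA + insulin against rMSA 438 were called, 1377 with median centring, 1918 with quantile normalization, 694 without the 50 highest genes, 7392 with array weights, 4622 with only the groups compared, 53 with the fold threshold, 1764 without the length trend and 56 to 124 with single libraries left out. For the interaction 4 were called, 2 with 0.1 TPM added, without a filter or with the robust fit, 8 with 5 TPM added or without the length trend, 0 with the replicate block or any of the 3 scalings, 3602 with array weights, 7 without insulin libraries 1 and 2, and 0 to 336 with single libraries left out, the most without insulin library 3. Depth is unknown, so how far it limits Fabp2 in AML12 cells, at 0 to 0.37 TPM, cannot be said.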
